A study of Homo sapiens with 83 samples.

Results

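The genes described here are the 100 transcripts of SHEP cells with N-MYC inactive, core clock genes aside, that best fitted a 24 h wave in both time series. Their fitted peaks lay within 3 h between the series. They were chosen from 60237 genes by values of the MYC-OFF libraries alone: 11879 genes had a mean of at least 3 TPM (the abundance of a transcript per unit of its length, on a scale where each library sums to 1000000), the linear trend over time was taken from log2(TPM + 1) in each series, and a cosine and sine with a 24 h period were fitted. The fitted peaks of the 2 series had to lie within 3 h of each other, which left 3861 genes once the core clock genes and their close relatives were set aside. The 100 with the highest R2, taking the smaller of both series, were kept. R2 is the share of the variance after detrending that the wave accounts for. Of the 100, 93 were annotated as protein-coding, and 96 had a gene name rather than a clone name.

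SHEP and SKNAS are human neuroblastoma lines, and all groups overexpressed N-MYC-ER, in which N-MYC is joined to the hormone-binding part of the estrogen receptor. MYC-ON cells had been given 4-hydroxytamoxifen (4OHT), which activates the fusion, and MYC-OFF cells its vehicle ethanol, 24 h before dexamethasone set all cells to a common phase. Times are given as CT, hours from the dexamethasone pulse. SHEP had 28 MYC-OFF and 28 MYC-ON libraries, in 2 series per condition of 14 time points each, every 4 h from CT24 to CT76, and SKNAS had 1 series per condition, with 14 MYC-OFF libraries and 13 MYC-ON libraries. A tamoxifen-driven fusion is 1 model of excess N-MYC. Because 4OHT was given to MYC-ON cells only, these libraries cannot tell an effect of the compound from that of the fusion. The paper cites its authors' earlier finding that tamoxifen alone left the molecular clock unaffected, as did a MYC-ER protein without transcriptional activity. These libraries hold no such control. Nothing in the labels says whether the SHEP series came from separate days or cultures, and p-values measure the spread between these libraries only.

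The molecular clock is a loop of transcription and translation: CLOCK and BMAL1 (the product of ARNTL) bind E-boxes and raise the transcription of PER, CRY, NR1D and many output genes, and the PER and CRY proteins then shut their activators down. NR1D proteins repress ARNTL through ROR elements. MYC proteins also bind E-boxes. Output genes differ between cell types, and they serve metabolism, secretion, RNA processing and the cytoskeleton among other functions.

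The identity of the SHEP libraries was checked first. Of 12 mesenchymal neuroblastoma markers, 11 had a mean of at least 3 TPM in SHEP MYC-OFF, led by VIM at 3469 TPM, and PRRX1 was at 0.633 TPM. Of 12 adrenergic markers 9 were under 1 TPM, among them TH and DBH, while HAND2, GATA2 and GATA3 were at 15.7 to 17.1 TPM. The read depth of each library is unknown because TPM keep none. The GC slope of a library (the change in log2 level per 10 points of transcript GC content, relative to the mean of the line's libraries) ran from -0.027 to 0.138 in MYC-OFF. In MYC-ON series 2 it fell to between -0.256 and -0.0997 at CT52 to CT72, and these 6 libraries stood apart from all other SHEP libraries.

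The clock's best-known DNA element was looked up in the promoters of the genes, from 250 bases before to 50 after the RefSeq start site (GRCh38.p14). A promoter was found for 74 of the 100 genes. The E-box CACGTG, which reads alike on both strands, was in 8 of them (10.8%), against 10.4% of 9141 promoters of genes with at least 3 TPM and 7.43% of all 27305 promoters. The windows below show these E-boxes in capitals with 12 bases on either side, 5′ to 3′ on the strand of the gene, since they place the clock's and MYC's shared element in the genes whose values follow.
GYG1: agcgtgcgcggcCACGTGacggccgctata
DDX5: gggtggtacagcCACGTGacaacgccaggc
HNRNPDL: agaggcccggggCACGTGcagaaaggagcc
MTHFD1L: cacgcccggctcCACGTGcgcagccggccg
AP5Z1, first: catgtgatgcggCACGTGacgcagccacgt
AP5Z1, second: ggccgctgcgctCACGTGacgcggtcccgg
DOLK, first: agacgccatgccCACGTGaccgctcgcccc
DOLK, second: cggggatttcgtCACGTGacgttgccgcgg
GALT: cagtcagtcagtCACGTGctggcggctggc
SH3BP2: ggccgcggaggcCACGTGcagttccccgcc

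The GYG1 window spans chr3:148991485-148991514 (+ strand), with its E-box 43 bases before the RefSeq start and inside an annotated exon of a GYG1 transcript. The DDX5 window (chr17:64506651-64506680, - strand, 30 bases before the start), the HNRNPDL window (chr4:82430364-82430393, - strand, 156 bases before it) and the MTHFD1L window (chr6:150866320-150866349, + strand, 154 bases before it) also overlapped an annotated exon of their own gene. The first AP5Z1 E-box (chr7:4775574-4775603, + strand) and both of DOLK (chr9:128947657-128947686 and chr9:128947610-128947639, - strand) lay outside annotated exons. The GALT window was at chr9:34646576-34646605 and that of SH3BP2 at chr4:2792884-2792913, both on the + strand.

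The other motifs are given beside their share of the promoters of genes with at least 3 TPM. The E-prime-box CACGTT was in 4 of 74 promoters (5.41% against 5.91%), the ROR element core TAGGTCA or TGGGTCA in 4 (5.41% against 3.91%), and the D-box TTATGTAA or TTACGTAA in 0 (against 0.514%). The paired glucocorticoid receptor sites ACANNNTGT were in 0 (against 2.56%), the cyclic AMP element TGACGTCA in 4 (5.41% against 3.52%), the heat shock element GAANNTTC in 6 (8.11% against 4.66%) and the CCAAT box in 23 (31.1% against 37.2%). Each was searched on both strands. A match is a stretch of letters in this window, not a bound site.

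The fitted waves were shallow. In MYC-OFF, whose values chose the genes and therefore serve as a description only, the smaller R2 ran from 0.376 to 0.671 with a median of 0.425. Amplitudes (the distance from the middle of the wave to its peak, on the log2 scale) ran from 0.0518 to 0.523 with a median of 0.13, a 1.2-fold difference from trough to peak, and 4 of the 100 genes reached 1.5-fold. The median over all 11879 genes was an R2 of 0.0803 and an amplitude of 0.0715. The choice ended between close neighbours: the last 3 genes inside were SNAP25 at an R2 of 0.377, TAOK2 at 0.376 and CROCCP2 at 0.376, and the first 3 outside were RPL6 at 0.376, DAPK3 at 0.375 and ADGRE1 at 0.374.

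**Figure D1:**
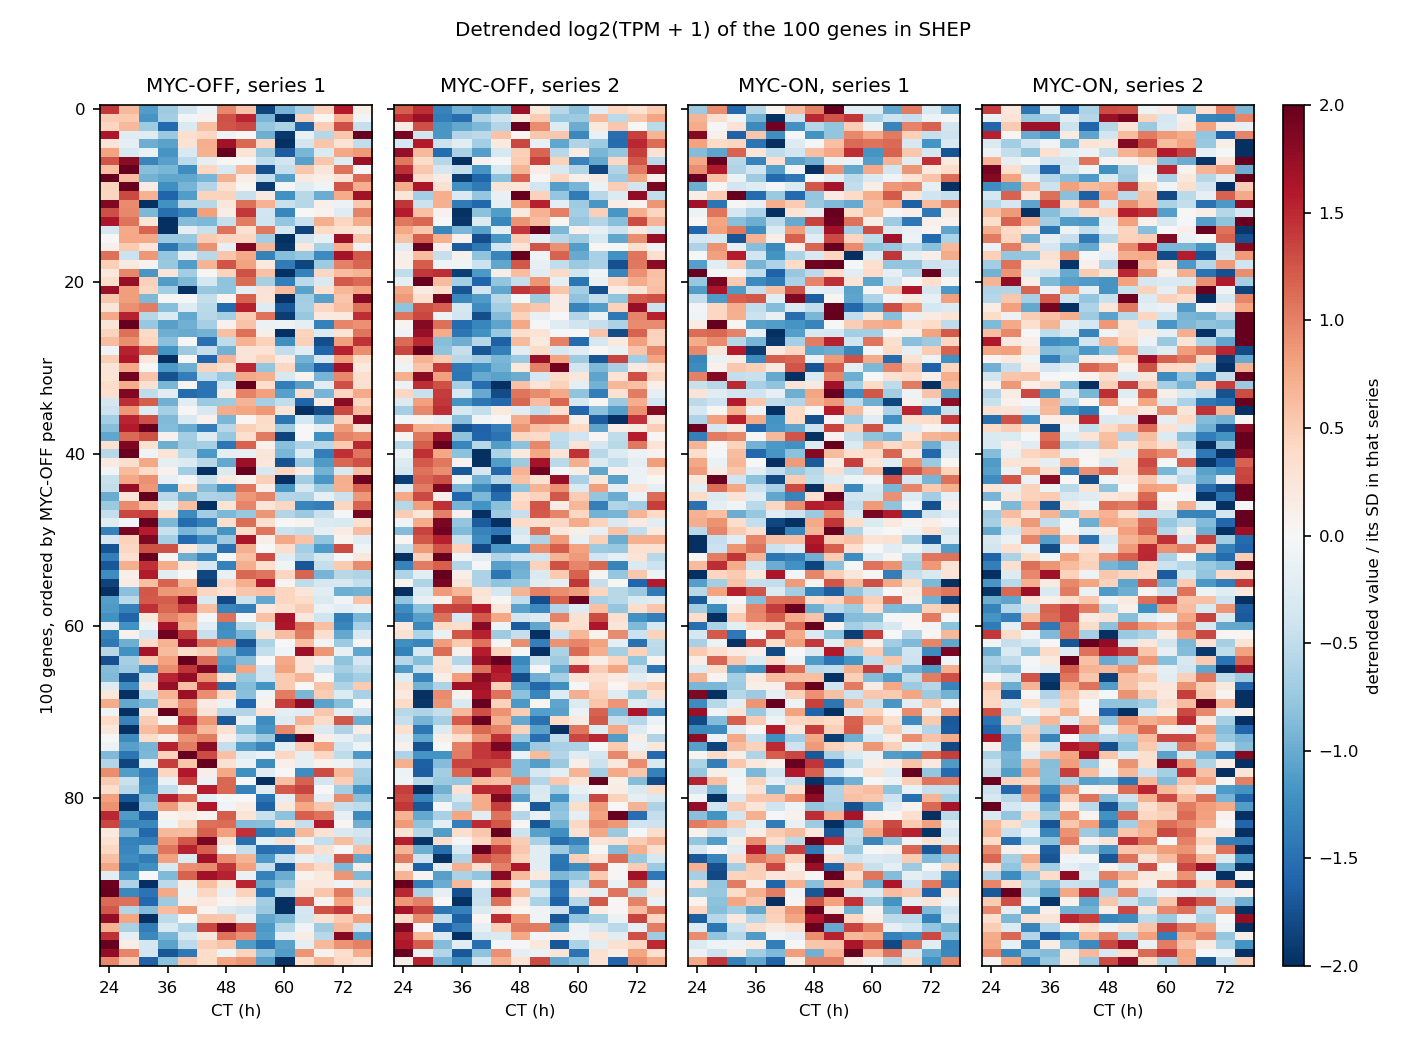
Each row is 1 of the 100 genes, ordered by its MYC-OFF peak hour, and each column a CT in hours. Colour gives the detrended log2(TPM + 1) divided by its standard deviation in that series, for the 2 MYC-OFF series and the 2 MYC-ON series. The bands of high values shift from row to row in both MYC-OFF series, by which the genes were chosen, and are less regular in MYC-ON.

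The core clock genes, left out by design, give the scale of these waves in the same libraries. NR1D2, a repressor of ARNTL, peaked at hour 3.32 (CT modulo 24) with a smaller R2 of 0.676 and an amplitude of 0.426. CRY1, a repressor of CLOCK and BMAL1, peaked at hour 12.8 with 0.610 and 0.389, and ARNTL at hour 19.3 with 0.432 and 0.26. In all, 6 of the genes left out would have passed the R2 of the last gene. DBP, a direct E-box target, had an R2 of 0.0114 in series 1 and 0.535 in series 2. Its fitted peaks lay at hours 2.42 and 11.1, and that of series 1 rests on almost no wave.

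The named genes of RNA processing had their mean peak between hours 0 and 4. SRSF5, a serine- and arginine-rich splicing factor (ENSG00000100650, chr14:69726900-69772005), had the third highest R2 and an amplitude of 0.246. It ran from 130.4 TPM at CT56 through a median of 161 to 193 at CT24 in series 1, and from 116 TPM at CT32 through 145 to 204 at CT48 in series 2. Its peaks fell at hours 23.4 and 0.782.

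The RNA helicase DDX5 (ENSG00000108654, chr17:64498254-64508199), a cofactor of splicing and transcription, ranged from 591 to 788 TPM in series 1 (median 708) and from 646 to 908 in series 2 (median 738), with a mean peak at hour 0.138. HNRNPDL (ENSG00000152795, chr4:82422565-82430462), an RNA-binding protein that regulates splicing, ranged from 118 to 190.5 TPM (median 138) and from 122 to 199 TPM (median 144), lowest at CT60 and highest at CT28 in both series, and peaked at hour 3.15. SRSF3, another splicing factor, kept the closest peaks of all 100 genes, 0.113 h apart, at hour 1.55 with an amplitude of 0.0833.

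These 4 genes were the members among 38 splicing factors listed from general knowledge, all of which were in the pool. Over the whole pool, 100 of 11879 genes were members. The median smaller R2 of the list was 0.21, against 0.0803 over the pool, and 19 of the 38 (50%) kept their peak within 3 h between series, against 32.6% of the pool. That share was not particular to splicing factors. Over the other lists it ran from 0% (adrenergic markers, 3 genes in the pool) to 64% (heat shock and chaperones). It was 60% for interferon response and 57.9% for glucocorticoid targets, lists without a member. Of those 19, 16 peaked between hours 21 and 6, where 44.9% of the 3861 candidates did. These are the MYC-OFF values that chose the genes, and the list was written with earlier results of these data known. They describe the list and are no test of it. PABPN1, which binds the poly(A) tails of nuclear RNA, and EWSR1, an RNA-binding protein of the FET family, stood outside the list and peaked at hours 2.57 and 2.73 with amplitudes of 0.107 and 0.0671.

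The named genes of metabolism peaked around hour 6 or hour 14. GYG1 (ENSG00000163754, chr3:148991408-149031775), which encodes glycogenin-1, the primer of glycogen synthesis, had the highest smaller R2 of all 100, with 0.823 in series 1 and 0.671 in series 2. It ranged from 27.5 to 42.2 TPM in series 1 (median 34.8) and from 28.6 to 39.6 TPM in series 2 (median 33.2), highest at CT36 and CT40, and peaked at hours 13.9 and 14.5. MTHFD1L, an enzyme of mitochondrial one-carbon metabolism, shared that hour, with a mean peak at 14.3 and a range of 45.9 to 74.8 TPM over both series.

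At the earlier hour stood SLC25A22 (ENSG00000177542, chr11:790475-798281), a mitochondrial glutamate carrier. It ranged from 39.1 to 60.7 TPM in series 1 (median 41.6) and from 37.4 to 49.97 TPM in series 2 (median 43.7), highest at CT32 and CT28, with a mean peak at hour 5.93. NSDHL, an enzyme of cholesterol synthesis, peaked at hour 6.11 and ranged from 29.9 to 46.2 TPM over both series. It was the only member among the 29 genes of cholesterol and fatty acid synthesis in the pool, against 100 members among all 11879 pool genes.

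Among genes of transcription and chromatin, ATF5, a stress-responsive transcription factor (ENSG00000169136, chr19:49928702-49933935), was highest at CT24 in both series, at 46.7 and 38.1 TPM, with medians of 31.2 and 31.7 and lowest values of 28.3 and 27.8. Its fitted peak was at hour 2.2. GTF3A, the factor that lets RNA polymerase III transcribe the 5S ribosomal RNA genes, peaked at hour 15.5 in a range of 112 to 163 TPM, and was lowest at CT28 and highest at CT40 in both series. BABAM2, a subunit of deubiquitinase complexes of the DNA damage response, peaked at hour 19.0 with an amplitude of 0.0773.

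Some of the largest amplitudes were those of TSGA10, CXCL1 and TRAPPC6A. TSGA10, known for its role in the sperm tail, had an amplitude of 0.523, a 2.06-fold difference from trough to peak, but ran between 1.09 and 7.5 TPM, and was highest at CT48 in both series. CXCL1 (ENSG00000163739, chr4:73869393-73871308), a chemokine that draws neutrophils, had an amplitude of 0.328 and peaked at hour 17.1. It was lowest at CT28 in both series, at 11.1 and 8.49 TPM, and highest at CT68 in series 1 (37.1 TPM, median 22.7) and at CT44 in series 2 (22.3 TPM, median 13.5). TRAPPC6A, a subunit of a vesicle-tethering complex, had an amplitude of 0.293.

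CNN2, an actin-binding calponin, peaked at hour 8.4, CAVIN1, a coat protein of caveolae, at hour 6.45, and NPC2, a cholesterol carrier of lysosomes, at hour 15.4. Of 23 gene lists written from general knowledge, 6 held a member. The splicing factors held 4, and cholesterol synthesis (NSDHL), lysosome (NPC2), serum response targets (CNN2), extracellular matrix and known clock outputs 1 each. The other 17 held none, among them PI3K and AKT signalling, ribosome biogenesis, oxidative phosphorylation, glucocorticoid targets, heat shock, cytosolic ribosomal proteins and both cell cycle lists. With 100 members among 11879 pool genes, most lists of this size would hold none at that share. A list without a member therefore says nothing about its pathway.

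**Figure D2:**
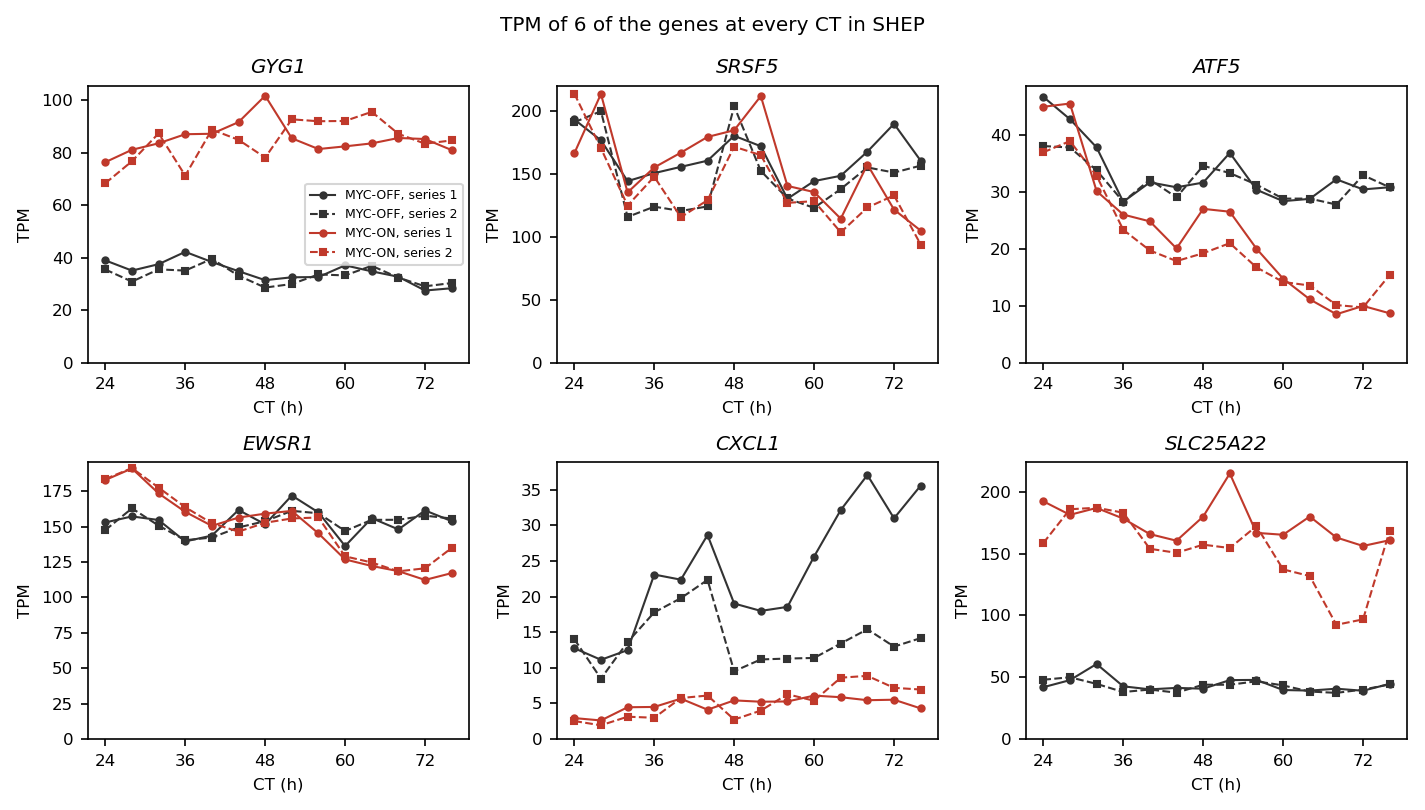
TPM (vertical axis, from 0) against CT in hours for 6 of the genes. Black marks MYC-OFF and red MYC-ON, with solid lines for series 1 and dashed lines for series 2, and each point is 1 library. GYG1 and SLC25A22 lie higher in MYC-ON at every CT and CXCL1 lower, while SRSF5 overlaps between the conditions.

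The peaks did not spread evenly over the day, and those of all candidates were spread in a similar way. Hours 21 to 3 held 30 of the genes, hours 3 to 9 held 34, hours 9 to 15 held 10, and hours 15 to 21 held 26. Among all 3861 candidates the shares of these 4 spans were 28.6%, 28.6%, 16.5% and 26.3%. The spans differed in base composition: the median transcript GC content was 45.3%, 57.7%, 51.4% and 44.2% in the same order, against 47.7% over the pool. The candidates followed the same order, with 47.3%, 55.6%, 49.6% and 42.8%.

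The GC slope of the MYC-OFF libraries was fitted like a gene as well. It had a 24 h R2 of 0.198 in series 1, with a peak at hour 7.46, and of 0.301 in series 2, with a peak at hour 5.41. The R2 of the pool genes had a median of 0.159 and an upper quartile of 0.279 in series 1, and of 0.143 and 0.256 in series 2. Whether the slope moved with a 24 h period was not tested. When that slope was removed together with the trend, 45 of the 100 genes were still chosen: 24 of 30 in hours 21 to 3, 10 of 34 in hours 3 to 9, 7 of 10 in hours 9 to 15 and 4 of 26 in hours 15 to 21. All 10 genes with the highest R2 were among the 45. HNRNPDL, CNN2, CAVIN1, NPC2, CXCL1, TRAPPC6A and MTHFD1L were not. The part of the GC slope in the waves of these genes was not tested beyond this count.

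**Figure D3:**
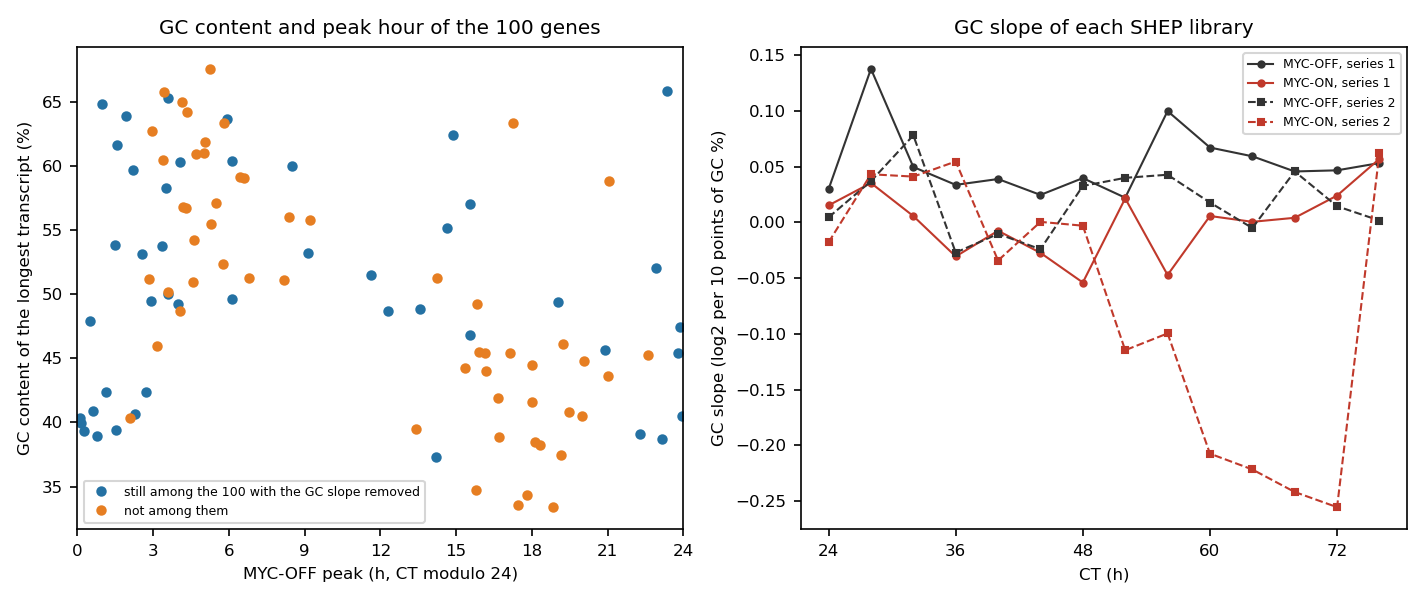
Left, transcript GC content (%) against the MYC-OFF peak hour for the 100 genes, blue where a gene was still among the 100 with the library GC slope removed and orange where it was not; most genes of hours 3 to 9 and 15 to 21 are orange. Right, the GC slope (log2 per 10 points of GC) of each SHEP library against CT in hours, with MYC-ON series 2 falling to -0.256 at CT72.

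The same rule was also run with the time labels shuffled. With the 14 CTs of each series put in another order, drawn apart for each series, a median of 21.5 genes reached the R2 of the last gene (0.376), from 7 to 105 over 50 orders, and 1 order reached 100 genes. With 1 order used for both series, so that values of the same CT stayed together, the median was 53 genes, from 6 to 441, and 8 of 50 orders reached 100. The share of the pool whose peaks lay within 3 h between series was 32.6% in the real order. It had a median of 25.3% over the orders drawn apart, 3 of 50 at or above the real one, and of 35.3% over the orders used for both series, 36 of 50 at or above it. These shuffles are given as a description of the rule. The same rule at other fixed periods found 42 genes past that R2 at 20 h, 87 at 28 h, 149 at 32 h and 326 at 36 h, with the window for the peaks scaled to the period, against 100 at 24 h. Of the 100 genes, 14 were among the best 100 at 20 h and 30 at 28 h, and none at 36 h.

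A choice made in 1 series can be read in libraries it did not use. The 100 genes with the highest R2 in MYC-OFF series 1 had their peak within 3 h in MYC-OFF series 2 for 54 genes, against 32.6% of the pool, and in MYC-ON series 2 for 34 genes, against 26.2% of the pool. The 100 chosen in MYC-OFF series 2 had their peak within 3 h in MYC-OFF series 1 for 53 genes, against 32.6% of the pool, and in MYC-ON series 1 for 50 genes, against 35.6% of the pool. The median R2 of the first choice was 0.153 in MYC-OFF series 2 (0.143 in the pool) and 0.148 in MYC-ON series 2 (0.148 in the pool). That of the second was 0.195 in MYC-OFF series 1 (0.159 in the pool) and 0.119 in MYC-ON series 1 (0.129 in the pool). Read this way, 14 and 17 of the 100 genes described here came up in the choices from series 1 and series 2.

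Whether the genes fitted a 24 h wave with N-MYC active was tested in the 28 MYC-ON libraries, which the choice did not use. None of the 100 passed at a limma adjusted p of 0.05, where 0.0139% of 14362 genes tested did. At an unadjusted p under 0.05, 23 of the 100 passed, against 10.9% of all genes tested. Of these 23, 18 peaked within 3 h of their MYC-OFF hour, against 52.0% of the pool genes at that p. With either series left out the count was 8 or 10, against 4.92% and 4.96% of all genes, and without the 6 libraries that stood apart it was 23, against 9.63%.

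The genes with the lowest p in MYC-ON were ATF5, EWSR1, CAVIN1, CXCL1 and HNRNPDL. ATF5 had an amplitude of 0.25 (SE 0.0476, limma p = 7.3e-05, adjusted p = 0.111) and peaked at hour 4.98, after hour 2.17 in MYC-OFF. Its MYC-ON values ran from 45.5 TPM at CT28 down to 8.5 TPM at CT68 in series 1 and from 38.9 TPM at CT28 down to 9.7 TPM at CT72 in series 2, a decline over the whole series on which the wave was fitted. EWSR1 had an amplitude of 0.0977 (SE 0.0189, limma adjusted p = 0.111) and also fell, from 191 TPM at CT28 in both series to 112 and 118 TPM at CT72 and CT68.

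CAVIN1 had an amplitude of 0.119 (SE 0.0292, limma adjusted p = 0.245) and a peak at hour 5.67, and CXCL1 one of 0.241 (SE 0.0604, limma adjusted p = 0.25) and a peak at hour 15.6. HNRNPDL peaked at hour 3.08 in MYC-ON and at hour 3.1 in MYC-OFF, with an amplitude of 0.108 (SE 0.0295, limma adjusted p = 0.332). The first 4 of these genes also met the whole rule in MYC-ON, with an R2 of at least 0.376 in both series and peaks within 3 h. They were 4 of the 100, against 0.96% of the pool.

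Among genes of the highest R2 in MYC-OFF, the MYC-ON wave was mostly small. GYG1 had a MYC-ON amplitude of 0.0344 (SE 0.0301, limma p = 0.529), PABPN1 of 0.0177 (SE 0.0295, limma p = 0.836) and GTF3A of 0.0162 (SE 0.0266, limma p = 0.832). SRSF5 had 0.168 (SE 0.0555, limma p = 0.0195) and peaked at hour 0.206, close to its hour of 0.235 in MYC-OFF, and SLC25A22 had 0.147 (SE 0.0452, limma p = 0.0114) with a peak at hour 7.41. Neither passed adjustment over all genes. The other splicing factors among the 100 differed in their MYC-ON hour, pooled over both series. HNRNPDL stayed close to its MYC-OFF hour, as given above. DDX5 peaked at hour 3.93, a shift of 3.74 h, and SRSF3 at hour 14.8, a shift of -10.7 h. The pooled amplitude was lower in MYC-ON for 80 of the 100 genes, with a median of 0.0748 against 0.127, and for 39.7% of the pool. The genes were chosen for their waves in MYC-OFF, so their amplitude there is raised by the choice itself and no test of the difference is given.

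The hour of the peak in MYC-ON was then set beside that in MYC-OFF. Over both series pooled, 56 of the 100 genes peaked within 3 h of their MYC-OFF hour, against 35.9% of the pool, and 18 were shifted by at least 6 h, against 36.9%. The median shift was 2.36 h in either direction, against 4.44 h in the pool. Across series, which share no library, MYC-ON series 2 peaked within 3 h of MYC-OFF series 1 for 49 genes (26.2% of the pool) and MYC-ON series 1 within 3 h of MYC-OFF series 2 for 52 (35.6% of the pool). Within series 1 it was 48 genes (30.8%) and within series 2 it was 55 (38.4%). The 2 MYC-ON series peaked within 3 h of each other for 53 genes, against 40.1% of the pool. The GC slope of the MYC-ON libraries had its fitted peak at hour 3.62 in series 1 and 5.53 in series 2, and with that slope removed 48 genes kept their hour, against 33.8% of the pool.

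**Figure D4:**
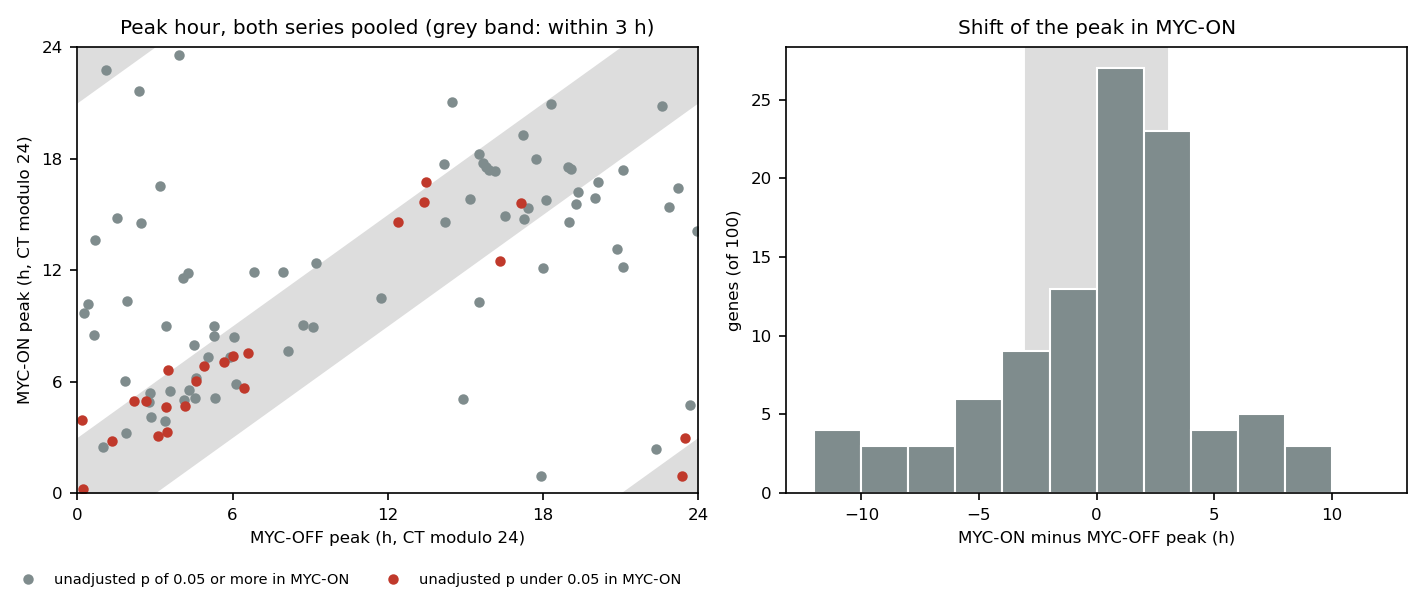
Left, the pooled MYC-ON peak hour against the pooled MYC-OFF peak hour (hours, CT modulo 24) of the 100 genes, with a grey band for peaks within 3 h and red for the 23 genes at an unadjusted p under 0.05 in MYC-ON. Right, the number of genes by the shift of the peak in hours, MYC-ON minus MYC-OFF; 56 genes lie within the grey band.

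The mean level of the genes, which the choice used only through the minimum of 3 TPM, differed between conditions for most of them. Of the 100, 42 were higher in MYC-ON (33.0% of all genes tested) and 42 lower (38.9%), called where the limma adjusted p did not exceed 0.05 and the log2 change was 0.15 or more in size. At 1.5-fold, 15 were higher (9.39% of all genes) and 15 lower (11.4%). The median log2 change was -0.04, against -0.036 over all 14362 genes. For 43 of the 100 genes all 28 pairs of the same series number and CT went one way, as for 27.9% of all genes tested. The genes tested, here and for the wave in MYC-ON, had a mean of at least 1 TPM in SHEP. The 100 genes had at least 3 TPM in MYC-OFF, so the sets differ in their lowest levels. Time points of 1 series come from 1 experiment. With the mean of each series as the replicate, 2 against 2, 34 of the 100 were higher (24.2% of all genes) and 39 lower (28.9%). In that fit the limma adjusted p of SLC25A22, the largest rise, was 0.000172.

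The 5 largest rises among the genes called were those of SLC25A22, MTHFD1L, E2F5, GYG1 and CD83. Of the 8 genes with an E-box shown above, 3 were higher and 5 lower in MYC-ON, where 33.0% and 38.9% of all genes tested were. These 8 are too few to set against those shares, and a link to the E-box was not tested. SLC25A22 rose from 43.2 ± 4.95 TPM (SD, n = 28) to 164 ± 26.0 TPM (SD, n = 28), by 1.88 on the log2 scale (SE 0.047, limma adjusted p = 8.77e-35), higher in 28 of 28 pairs. Its lowest MYC-ON library, at 92.4 TPM, lay above its highest MYC-OFF library, at 60.7 TPM. MTHFD1L rose from 58.7 ± 6.82 TPM (SD, n = 28) to 194 ± 39.5 TPM (SD, n = 28), by 1.69 on the log2 scale (SE 0.062, limma adjusted p = 4.86e-28). GYG1 rose from 33.9 ± 3.67 to 85.0 ± 7.05 TPM (SD, n = 28 each), by 1.3 on the log2 scale (SE 0.036, limma adjusted p = 7.04e-33), with no overlap between the conditions.

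E2F5, an E2F factor that represses cell cycle genes, rose by 1.36 (SE 0.05, limma adjusted p = 6.63e-28) from 16.3 TPM, and CD83, a membrane protein of the immunoglobulin family, by 1.25 (SE 0.036, limma adjusted p = 4.31e-32) from 15.95 TPM, both in 28 of 28 pairs. Of the other genes of RNA processing, HNRNPDL rose by 0.54 (SE 0.03, limma adjusted p = 2.11e-21), higher in 28 of 28 pairs. DDX5 fell by 0.31 on the log2 scale (SE 0.053, limma adjusted p = 8.79e-07), in 23 of 28 pairs. SRSF5 changed by -0.092 (limma adjusted p = 0.111) and SRSF3 by -0.036 (limma adjusted p = 0.627), within the spread of the libraries.

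The 5 largest falls among the genes called were those of CXCL1, TNFSF9, NPC2, PLCD3 and CNN2. CXCL1 fell from 18.7 ± 8.10 TPM (SD, n = 28) to 5.00 ± 1.77 TPM (SD, n = 28), which is -1.67 on the log2 scale (SE 0.11, limma adjusted p = 4.23e-19) and was seen in 28 of 28 pairs, though its highest MYC-ON library, at 8.87 TPM, overlapped its lowest MYC-OFF library, at 8.49 TPM. TNFSF9, the ligand of the immune receptor 4-1BB, changed by -1.59 (SE 0.092, limma adjusted p = 1.71e-20) and NPC2 by -1.51 (SE 0.041, limma adjusted p = 2.09e-33). NPC2 ran from 205 to 307 TPM in MYC-OFF and from 69.2 to 120 TPM in MYC-ON, with no overlap. PLCD3, a phospholipase C, changed by -1.05 (SE 0.059, limma adjusted p = 3.87e-21) and CNN2 by -0.996 (SE 0.055, limma adjusted p = 2.83e-21).

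Rises and falls occurred at every peak hour. In hours 21 to 3, 11 of 30 genes were higher and 11 lower in MYC-ON, in hours 3 to 9 it was 14 and 16 of 34, in hours 9 to 15 it was 5 and 4 of 10, and in hours 15 to 21 it was 12 and 11 of 26. The median log2 changes were -0.04, -0.11, 0.022 and 0.048 in that order.

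SKNAS gave a reading in another line. Of the 100 genes, 89 had a mean of at least 1 TPM there and were tested, CXCL1 and TNFSF9 not among them. In MYC-OFF none of the 89 had a 24 h wave at a limma adjusted p of 0.05 (0.0% of 13886 genes), and none at an unadjusted p under 0.05, where 0.418% of all genes passed. The lowest unadjusted p were those of TSGA10 (0.0981), AP5Z1 (0.169), a subunit of an adaptor complex of endosomes, and COPS6 (0.189), a subunit of the COP9 signalosome. In MYC-ON 0 of 89 passed either threshold, where 0.266% of all genes had an unadjusted p under 0.05. SKNAS has 1 series of 14 or 13 libraries, in which the fit called almost no gene. A count of 0 of 89 is near the share of all genes, so it cannot tell whether these genes had a 24 h wave in SKNAS.

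Levels in SKNAS were lower in MYC-ON for 30 of the 89 genes (34.2% of all genes tested) and higher for 16 (13.9%), and at 1.5-fold for 21 (23.8%) and 7 (6.99%). The median log2 change was -0.18, against -0.29 over all genes, and after median-of-ratios rescaling of the libraries the counts were 25 lower (23.9% of all genes) and 34 higher (27.6%). All 16 genes higher in SKNAS were also higher in SHEP, against 82.9% of all genes higher in SKNAS, and 24 of the 30 lower ones were lower in SHEP (80%), against 73.5%. After the rescaling it was 28 of 34 (82.4% against 76.2%) and 21 of 25 (84% against 74.7%). SLC25A22 rose by 1.67 on the log2 scale (SE 0.25, limma adjusted p = 5.75e-05), MTHFD1L by 1.56 (SE 0.091, limma adjusted p = 7.01e-09) and GYG1 by 0.91 (SE 0.1, limma adjusted p = 3.88e-06), each in 13 of 13 pairs. NPC2 changed by -1.05 (SE 0.085, limma adjusted p = 1.5e-07), again in 13 of 13 pairs, and CNN2 by -1.32 (SE 0.25, limma adjusted p = 0.000618).

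**Figure D5:**
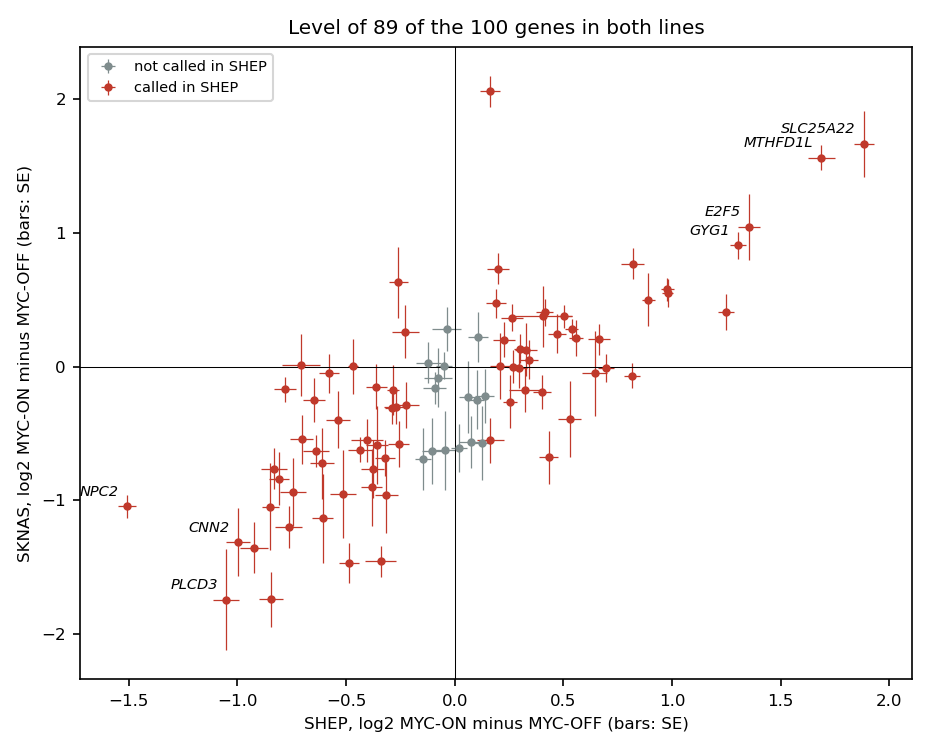
Log2 change of the level, MYC-ON minus MYC-OFF, in SHEP (horizontal) and SKNAS (vertical) for the 89 genes tested in both lines; points are genes, bars are standard errors of limma, and red marks genes called in SHEP. SLC25A22 and MTHFD1L lie at the upper right and NPC2, CNN2 and PLCD3 at the lower left.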

How the data were processed

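Polyadenylated RNA of 83 libraries had been sequenced. The authors ran Salmon 1.3.0 on Gencode transcripts of GRCh38, gene sums were made with Tximport, and the deposited values are TPM per gene and library. TPM hold no depth, so no counting error can be given. The genes, lists, tests and rules for naming genes were chosen with earlier results of these data known. Trends and 24 h waves were fitted by least squares (Python, numpy). Tests were made with limma 3.58.1 (R 4.3.3) and took log2(TPM + 1) of genes with a mean of at least 1 TPM in the line, with Benjamini-Hochberg adjustment over all genes. A rhythm was an F test of cosine and sine with the mean and trend of every series in the model, and a level was MYC-ON against MYC-OFF with CT as a factor. The study's own count model could not be used on TPM. Fold changes on this scale understate those of low genes. Scripts were tested on simulated data.

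Genes named were the 10 with the highest R2, the 5 with the largest amplitude, those on either side of the last gene chosen, those with the lowest p in MYC-ON (5) and SKNAS MYC-OFF (3), the 5 largest rises and 5 largest falls, and those in 23 fixed lists. Clone names were not described, and some genes that the rule names are not reported here. Positions, lengths and GC content came from Gencode 44 (GRCh38), and promoters from RefSeq. Alternatives changed the pseudocount, the minimum TPM, the trend, the scaling, the period, the libraries and the replicate block, or used series means.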

Additional observations from a re-analysis of the deposited data

How the results depend on the processing

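The membership of the 100 genes depended on the processing. With a pseudocount of 0.1, 99 were chosen again, with a minimum of 1 or 10 TPM 85 and 80. Fewer were chosen again with no trend removed (66), a quadratic trend (39), median-of-ratios rescaling (57), the library GC slope (45) or the library median (56) removed with the trend, a period of 20 h (13) or 28 h (28), and without CT24 (65) or CT76 (57). With the mitochondrial share removed, an alternative chosen after seeing the data, it was 59. The cause was not tested.

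The count of genes at an unadjusted p under 0.05 in MYC-ON, 23, was 8 at a period of 20 h and 11 with no replicate block, and ranged from 8 to 10 without replicate 2 or 1, where the fit had fewer libraries. The share of all genes, 10.9%, fell with it, to 4.19%, 6.47%, 4.92% and 4.96% in that order. In SKNAS MYC-OFF it went from 0 to 1 with no filter on low values (1.37% of all genes) and to 1 with the library median as covariate (1.87%). In SKNAS the genes higher in MYC-ON went from 16 to 34 with median-of-ratios rescaling and to 35 with the library median as covariate (28.3% of all genes), and the lower ones from 30 to 18 with that covariate (25.9%). Counts in SHEP stayed within 1.5 times of 42 under every alternative listed, and were 42 and 42 with the replicate block. The 70 values tried for the levels of named genes kept their direction and their side of the threshold. The 50 amplitudes tried in MYC-ON, which have no direction, stayed uncalled, though that of ATF5 went from 0.25 to 0.118 at 20 h.

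The series share only a number between conditions. Same-numbered MYC-OFF and MYC-ON libraries deviated together at each CT, across genes, with r from 0.0417 to 0.411 (median 0.182, 14 CTs), a hint from the data and not from the design. TPM hold no depth, and SKNAS has 1 series per condition.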
